A study of Mus musculus with 10 samples.

Results

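The genes of glucose transport and glycolysis were followed in mouse visual cortex that had lost or kept its main eye input. The members were 10 named genes: the glucose transporter genes Slc2a1 and Slc2a3, the glycolytic enzyme genes Hk1, Gpi1, Pfkp, Aldoa, Pgk1, Eno2 and Pkm, and the lactate dehydrogenase gene Ldha. All probe sets with 1 of these symbols as their only annotated gene were taken, whatever their values, which gave 13 probe sets for 9 genes out of 12422 probe sets for 8251 genes on the array. Gpi1, the gene of glucose-6-phosphate isomerase, was not analysed here. All mice were wild-type C57Bl6 and had 1 eye removed at postnatal day 14, and the visual cortex was taken at postnatal day 18, 4 days later. Deprived samples (5) are the visual cortex opposite the lost eye, and non-deprived samples (5) that on its own side, which still receives the crossed fibres of the eye that was left in place. Both groups thus shared the surgery, and no intact control belongs to the design. Samples are described as pooled, and the protocol names 4 mice without tying them to samples, so that the p-values measure the spread between these samples, which may be technical. The question of the comparison was which transcripts differ between the hemispheres.

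Glycolysis splits glucose into pyruvate in the cytosol and yields ATP without oxygen. The brain depends on glucose from the blood. It enters through the transporter GLUT1 (Slc2a1) of the capillary endothelium and of astrocytes, and is taken up by neurons mainly through GLUT3 (Slc2a3). Hexokinase and phosphofructokinase commit it to the pathway. Lactate dehydrogenase then converts pyruvate and lactate into each other, and lactate can pass between astrocytes and neurons. Many genes of the pathway are known targets of the hypoxia-inducible factor HIF-1, which binds a short DNA core, ACGTG or GCGTG.

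The 250 bases before the start of Ldha, Slc2a1 and Pgk1 are shown, because these 3 genes had the lowest estimates among the members, deprived against non-deprived, and are textbook HIF-1 targets; they were picked after their values were seen. They are the RefSeq windows of build GRCm38.p6, all on the plus strand, at chr7:46845554-46845803 for Ldha (the first of 2 windows), chr4:119108495-119108744 for Slc2a1 and chrX:106186850-106187099 for Pgk1. Capitals mark ACGTG or GCGTG on either strand, so that CACGT and CACGC are marked as well.
Ldha: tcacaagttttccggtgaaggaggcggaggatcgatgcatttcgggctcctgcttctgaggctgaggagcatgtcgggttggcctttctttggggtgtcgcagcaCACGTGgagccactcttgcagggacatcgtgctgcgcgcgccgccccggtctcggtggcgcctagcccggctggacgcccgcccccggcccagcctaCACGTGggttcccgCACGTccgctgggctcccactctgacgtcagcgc
Slc2a1: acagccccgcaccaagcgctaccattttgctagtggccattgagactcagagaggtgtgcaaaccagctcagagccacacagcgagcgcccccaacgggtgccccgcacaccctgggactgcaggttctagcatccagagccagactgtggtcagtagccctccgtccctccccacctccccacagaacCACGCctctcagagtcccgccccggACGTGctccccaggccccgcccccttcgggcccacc
Pgk1: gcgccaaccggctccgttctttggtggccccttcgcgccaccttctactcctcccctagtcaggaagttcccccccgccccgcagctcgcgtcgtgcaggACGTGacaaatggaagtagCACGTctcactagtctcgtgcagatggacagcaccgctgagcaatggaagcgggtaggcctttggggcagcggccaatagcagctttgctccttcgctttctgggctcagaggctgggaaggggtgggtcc
The Ldha window held 5 matches, of which 4 lay in 2 palindromes CACGTG that read as a match on each strand. The windows of Slc2a1 and Pgk1 held 2 matches each. Members that were not picked held as many or more: the Pfkp window had 3, and the windows of Hk1 had 0 and 3. The second Ldha window had 1. Of the 9 member genes in the RefSeq table, Gpi1 among them, 7 had at least 1 window with a match, against 41.5% of all 27025 genes. Counted by window, it was 9 of 14, against 38.6% of all windows. Neither comparison was matched for base composition. Gpi1 and Eno2 had none, and Slc2a3 was not in the table. A match is a short string of letters and does not show binding.

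None of the 13 member probe sets passed an adjusted p of 0.05 in limma, and neither did any of the 7453 probe sets tested (0%). Without deprived replicate 4 the count over the whole table was 1, and without non-deprived replicate 1 it was 5, no member among them. At an unadjusted p under 0.05 there was 1 member probe set, that of Ldha, lower in deprived cortex, against 4.79% of all probe sets (2.36% lower and 2.43% higher). This count ran from 0 to 3 over the other settings. It was 3 under median centring, with Slc2a1 and the dimmer Pfkp probe set besides Ldha, and 2 without deprived replicate 3 or 4. It was 0 without the intensity trend and without deprived replicate 1 or non-deprived replicate 2, 3 or 4. The 1 member counted was not always Ldha. With deprived replicate 5 left out it was the dimmer Aldoa probe set, higher in deprived cortex. With non-deprived replicate 1 left out it was Slc2a1, lower in deprived cortex. The 2 groups overlapped on every member probe set, while they did not overlap on 0.953% of all tested ones. All 13 members passed the filter on dim signals. Their estimates lay below 0 for 8 and above 0 for 5, with a median log2 difference of -0.03, against a median of 0.01 over all tested probe sets, of which 48% lay below 0. The 95% intervals of the members ran no lower than -0.52 and no higher than 0.54 on the log2 scale, and 12 of the 13 included 0. These limits correspond to 30.2% lower (Slc2a1) and 45.5% higher (Slc2a3). In bulk tissue, fewer cells of a type and less RNA per cell cannot be told apart.

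**Figure D1:**
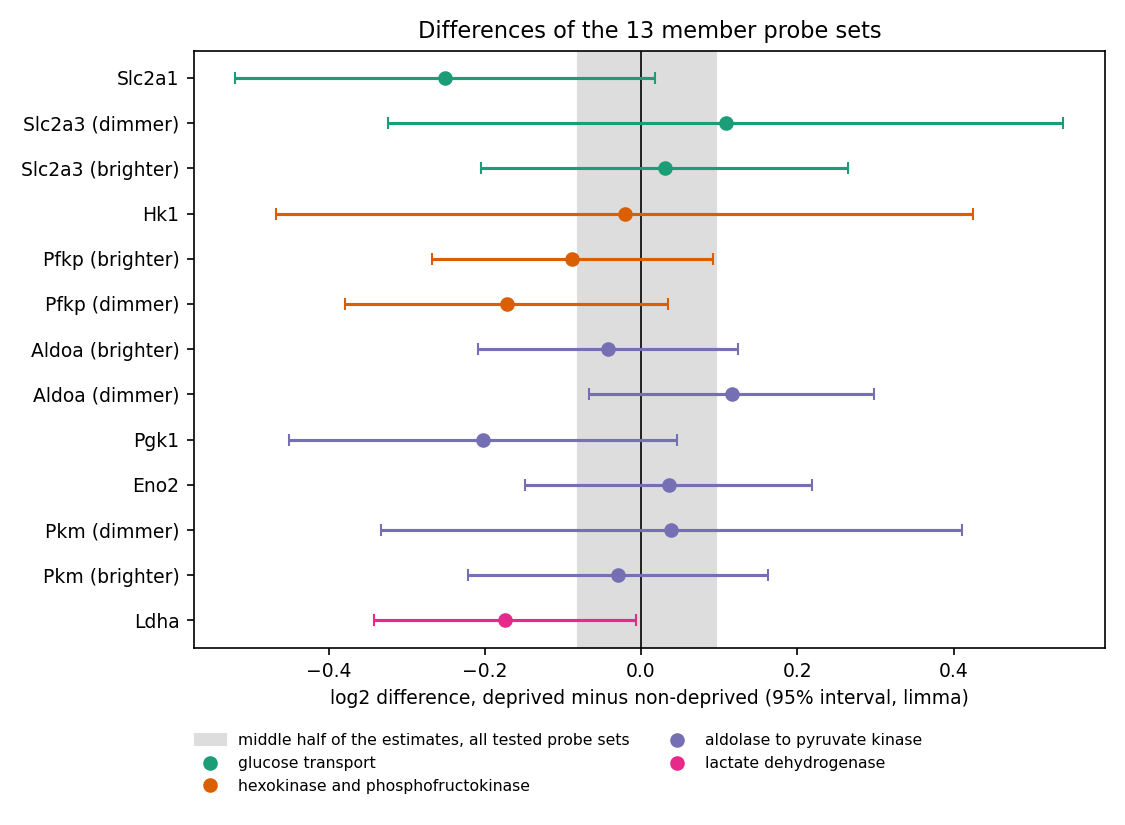
Log2 difference, deprived minus non-deprived, of each of the 13 member probe sets (points) with its 95% interval from limma (bars), coloured by the step of the pathway. The grey band is the interquartile range of the estimates of all 7453 tested probe sets, and the interval of Ldha alone stays below 0, from -0.34 to -0.01.

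Of the transporters, Slc2a1 had the lowest estimate of all members, and Slc2a3 lay slightly above 0. The Slc2a1 signals (MAS5 units, arbitrary) were 586, 483, 645, 683 and 482 in deprived replicates 1 to 5 and 545, 674, 688, 765 and 758 in non-deprived replicates 1 to 5. All 5 deprived arrays lay under the non-deprived median of 688, but only 2 lay under the lowest non-deprived array. The means were 576 ± 92.0 and 686 ± 88.9 (SD, n = 5 each), 16.1% lower, with a log2 difference of -0.25 ± 0.12 (SE; exact two-sided permutation p = 0.111, limma adjusted p = 0.992). Its interval ran from -0.52 to 0.02.

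Slc2a1 is made by endothelium and astrocytes, and the markers of these cells were read beside it. The 11 tested probe sets of 9 endothelial genes had 6 estimates below 0, a median of -0.02 and summed signals of 3547 to 4427 in deprived and 3735 to 4068 in non-deprived arrays. Their estimates ran from -0.19 (Cldn5) to 0.29, none with an unadjusted limma p under 0.05, against 4.79% of all tested probe sets. Cldn5, a tight-junction gene of the blood-brain barrier, had 891 ± 34.8 and 1021 ± 114 (SD, n = 5 each; log2 -0.19 ± 0.09 SE; exact permutation p = 0.0397, limma adjusted p = 0.992), and the endothelial receptor gene Eng had 1100 and 1163. The 12 astrocyte probe sets had 5 estimates below 0 and a median of 0.03, with sums of 30833 to 34687 and 29703 to 33862. Their estimates ran from -0.16 to 0.38. At an unadjusted limma p under 0.05, 1 was higher and 0 were lower in deprived cortex, against 2.43% and 2.36% of all tested probe sets. No probe set of these lists had a signal of 0, and their part in the values of Slc2a1 was not tested.

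Slc2a3 was read by 2 probe sets. The dimmer had 497, 265, 506, 460 and 398 in deprived and 430, 258, 505, 472 and 312 in non-deprived arrays. The array numbered 2 was the lowest of each group. The log2 difference was 0.11 ± 0.20 (SE), with an interval from -0.32 to 0.54, the widest upward limit of the members. The brighter had 993 ± 106 and 976 ± 146 (SD, n = 5 each; log2 0.03 ± 0.11 SE). It gave a narrower interval from -0.20 to 0.27.

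**Figure D2:**
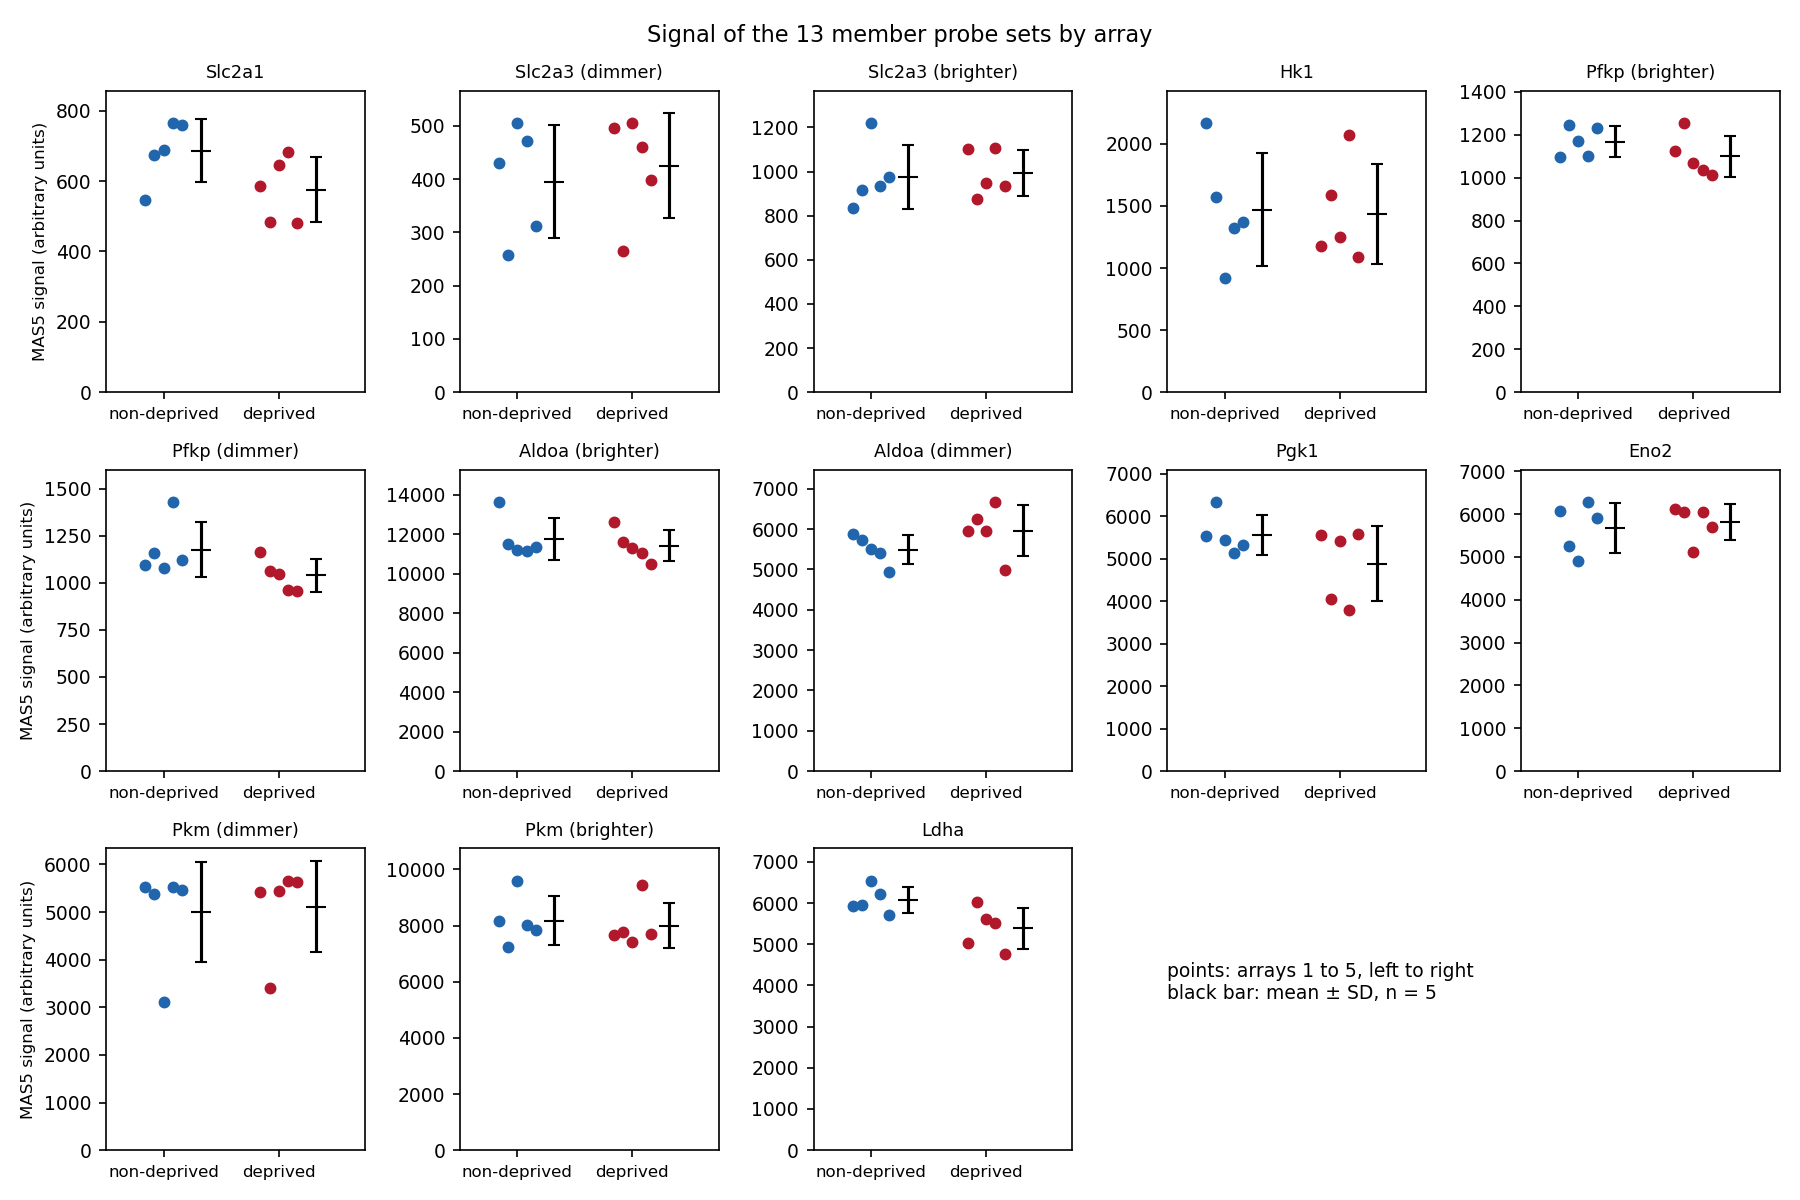
MAS5 signal (arbitrary units, axes from 0) of the 13 member probe sets on the 5 non-deprived (blue) and 5 deprived (red) arrays, replicates 1 to 5 from left to right, with mean and SD as black bars. The groups overlap in every panel, and the dimmer Pkm probe set has 1 low array in each group.

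The gene of hexokinase 1, which phosphorylates glucose as it enters the cell, had nearly equal means on the most variable probe set of the members. Hk1 had signals of 1175, 1592, 1254, 2074 and 1087.5 in deprived and 2170, 1572, 922, 1322 and 1368 in non-deprived arrays. The highest and the lowest array of all 10 were both non-deprived. The means of 1436 ± 404 and 1471 ± 456 (SD, n = 5 each) differed by -0.02 ± 0.21 (SE) on the log2 scale, with an interval from -0.47 to 0.43.

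Pfkp, the platelet-type subunit of phosphofructokinase and a main form in brain, had lower means in deprived cortex on both probe sets. On the dimmer, which by its design reads a group of similar sequences, the signals were 1165, 1063, 1049, 961 and 956 in deprived and 1095, 1160, 1076, 1429 and 1119 in non-deprived arrays. Of the deprived arrays, 4 lay under the lowest non-deprived one, and replicate 1 lay above 4 of the 5 non-deprived arrays. The difference was -0.17 ± 0.10 (SE; exact permutation p = 0.0794, limma adjusted p = 0.992), and -0.10 without non-deprived replicate 4, the highest array. The slightly brighter one had 1100 ± 96.6 and 1168 ± 70.8 (SD, n = 5 each; log2 -0.09 ± 0.08 SE). Both were designed on the same database sequence and are not independent readings of the gene.

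Aldolase A splits fructose bisphosphate, and the 2 Aldoa probe sets lay on opposite sides of 0. Both are of the family type, which can take up signal from similar sequences. On the brighter the signals were 11427 ± 791 in deprived and 11780 ± 1056 in non-deprived cortex (SD, n = 5 each; log2 -0.04 ± 0.08 SE). On the dimmer they were 5966 ± 622 and 5488 ± 355 (log2 0.12 ± 0.08 SE; exact permutation p = 0.183). Neither interval excluded 0, the first running from -0.21 to 0.12 and the second from -0.07 to 0.30.

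Phosphoglycerate kinase makes the first ATP of the pathway. Its gene Pgk1 had signals of 5554, 4062, 5420, 3799 and 5587 in deprived and 5541, 6342, 5447, 5147 and 5320 in non-deprived arrays. Deprived replicates 2 and 4 were lower than all other arrays, and the other 3 deprived arrays lay within the non-deprived range. The means of 4884 ± 878 and 5559 ± 462 (SD, n = 5 each) gave a log2 difference of -0.20 ± 0.12 (SE; exact permutation p = 0.254, limma adjusted p = 0.992). Leaving out 1 array at a time moved it between -0.26 and -0.12, and without deprived replicate 4 the difference was -0.12.

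Eno2, neuron-specific enolase, which forms phosphoenolpyruvate, had signals of 5124 to 6125 in deprived and 4899 to 6285 in non-deprived cortex. The means of 5809 ± 419 and 5681 ± 584 (SD, n = 5 each) differed by 0.04 ± 0.09 (SE) on the log2 scale, with an interval from -0.15 to 0.22.

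Pkm encodes the muscle-type pyruvate kinase, which makes pyruvate and ATP, and its splice forms PKM1 and PKM2 cannot be told apart here. The brighter probe set had 7678, 7762, 7409, 9439 and 7706 in deprived and 8144, 7246, 9591, 8014 and 7844 in non-deprived arrays. Each group held 1 array well above the other 4, and the difference was -0.03 ± 0.09 (SE) on the log2 scale. The dimmer, of the family type, had 5417, 3409, 5440, 5657 and 5641 in deprived and 5531, 5384, 3117, 5530 and 5458 in non-deprived arrays. Here each group held 1 array far below the other 4, deprived replicate 2 and non-deprived replicate 3, and on non-deprived replicate 3 the other probe set of the gene was at its highest. The difference was 0.04 ± 0.17 (SE), and without these 2 arrays it was 0.016 on this probe set and 0.039 on the brighter one.

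Ldha, the lactate dehydrogenase subunit that favours lactate formation, had the smallest p of the members. Its signals were 5034, 6028, 5614.5, 5522 and 4765 in deprived and 5928, 5964, 6540, 6214 and 5715 in non-deprived arrays. Of the deprived arrays, 4 lay under every non-deprived array, while deprived replicate 2 lay above 3 of them. The means were 5393 ± 498 and 6072 ± 316 (SD, n = 5 each), 11.2% lower in deprived cortex, with a log2 difference of -0.17 ± 0.08 (SE; 95% interval -0.34 to -0.01; exact permutation p = 0.0317, limma adjusted p = 0.992). It did not pass over the whole table. The unadjusted limma p ranged from 0.0135 (without deprived replicate 2) to 0.122 (without deprived replicate 5) with 1 array left out.

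The members differed in how far they scattered within a group. Their median within-group SD was 0.14 on the log2 scale, against 0.20 over all tested probe sets. The members were bright, from percentile 65.3 (dimmer Slc2a3) to 99.6 (brighter Aldoa) of mean log2 signal, and the SDs were not matched for brightness. The brighter Pfkp probe set, Ldha and the brighter Aldoa probe set were the steadiest, at 0.11 each. Hk1 and the dimmer probe sets of Slc2a3 and Pkm were the most variable, at 0.41, 0.38 and 0.34.

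**Figure D3:**
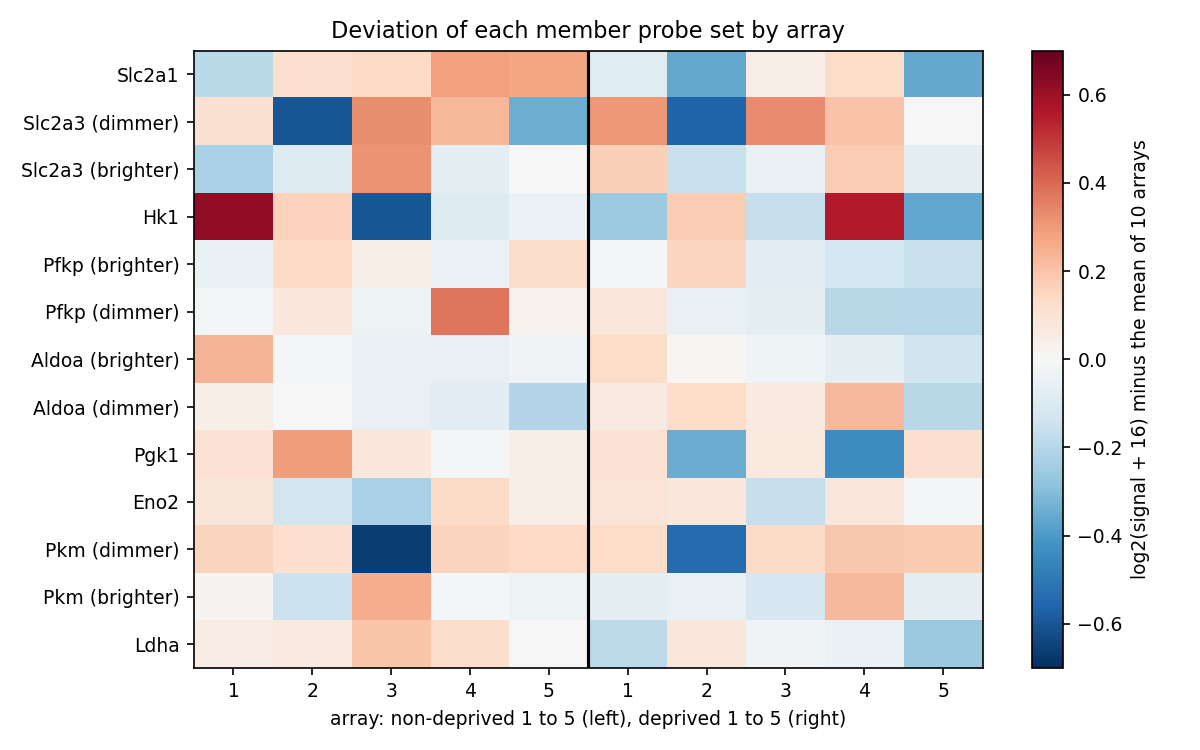
Deviation of each member probe set (rows) on each array (columns) from its mean over the 10 arrays, in log2(signal + 16) units, red above and blue below. No column is of 1 colour throughout: the median deviation of an array over the 13 probe sets ran from -0.14 (deprived replicate 5) to 0.13 (deprived replicate 4).

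No array was high or low for all members. Deprived replicate 5 had the lowest signal of the 10 arrays for 5 of the 13 probe sets, namely those of Slc2a1 and Ldha, both of Pfkp and the brighter of Aldoa, and a median deviation of -0.14. Deprived replicate 4 had the highest for 2 and a median deviation of 0.13. Non-deprived replicate 3, which held the low value of the dimmer Pkm probe set, was highest for 3 and lowest for 3. Its ratio of the 3' to the 5' control probe set of actin, a sign of RNA integrity, was 1.90, against 1.43 to 1.70 on the other 9 arrays, and the part of this in the values was not tested.

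Gapdh, the glycolytic enzyme gene between aldolase and phosphoglycerate kinase, was the only annotated symbol of no probe set outside the controls. The control probe sets for its 3' end, middle and 5' end were not part of the fit. Their signals were 19173 ± 1359 and 18330 ± 876 at the 3' end, 18592 ± 760 and 18964 ± 815 in the middle, and 18391 ± 499 and 18331 ± 885 at the 5' end, in deprived and non-deprived cortex (SD, n = 5 each). The groups overlapped on all 3, and the differences of the means were 4.60%, -1.96% and 0.323%.

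The rest of the pathway was read from 6 lists of 108 other genes, of which 78 had probe sets and 54 had at least 1 tested probe set. None of the 58 tested probe sets passed the adjusted threshold. At an unadjusted p under 0.05, 3 were lower and 2 higher in deprived cortex, against 2.36% and 2.43% of all tested probe sets. The groups did not overlap on 1 of the 58, against 0.953% of all. Estimates lay above 0 for 35 and below for 23, with a median log2 difference of 0.02.

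The other enzymes of glycolysis had 7 of 11 estimates below 0 and a median of -0.05. Aldoc, the aldolase of astrocytes and the brightest of them, had 7021 ± 491 and 7643 ± 657 (SD, n = 5 each; log2 -0.12 ± 0.08 SE). Minpp1, a phosphatase of inositol phosphates and bisphosphoglycerate, had 1083 ± 68.8 and 1244 ± 120 (log2 -0.19 ± 0.09 SE; exact permutation p = 0.0476, limma adjusted p = 0.992). Of the other glucose transporters, only Slc2a8, an intracellular one, was bright enough to be tested, at 648 ± 91.5 and 720 ± 51.1 (log2 -0.16 ± 0.10 SE; -0.086 without deprived replicate 2).

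The list of glycogen and glucose side branches had 12 of 13 estimates above 0 and a median of 0.07, and none passed the adjusted threshold. Over all tested probe sets, 48% of the estimates lay below 0. The list mixes genes of opposite direction, with glycogen breakdown (Pygb, Pygm) beside glycogen synthesis (Gys1) and the pentose phosphate pathway. Rpe, an epimerase of the pentose phosphate pathway, had signals of 177, 235, 215, 155 and 177 in deprived and 126, 146, 157, 102 and 154 in non-deprived arrays. A single deprived array, replicate 4, lay within the non-deprived range. The log2 difference was 0.44 ± 0.16 (SE; exact permutation p = 0.0159, limma adjusted p = 0.992) on a dim probe set. The brightest member of this list, the phosphoglucomutase gene Pgm1, had 1395 and 1368, and the estimate below 0 was that of the muscle glycogen phosphorylase gene Pygm (log2 -0.03 ± 0.15 SE), named after its values were seen.

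Genes that handle pyruvate and lactate had 8 of 13 estimates above 0 and a median of 0.04, and none had an unadjusted p under 0.05. Bsg, the partner that carries lactate transporters to the membrane, had 5393 ± 285 and 5196 ± 489 (SD, n = 5 each; log2 0.06 ± 0.08 SE). Of the NADH shuttles, 4 of 6 estimates lay above 0, with a median of 0.04, and the brightest, the malate dehydrogenase gene Mdh2, had 7003 ± 555 and 7353 ± 397 (log2 -0.07 ± 0.07 SE). Pyruvate carboxylase (Pcx), an enzyme of astrocytes, was on the array both as a control and among the tested probe sets. The control probe sets had 805 ± 64.5 in deprived and 721 ± 91.6 in non-deprived arrays at the 3' end, 245 ± 60.6 and 237 ± 40.3 at the 5' end, and 112 ± 81.4 and 68.4 ± 21.2 and 247 ± 73.5 and 238 ± 37.3 on both in the middle (SD, n = 5 each). The 2 tested Pcx probe sets, named after their values were seen, lay on opposite sides of 0, at log2 differences of 0.20 ± 0.14 and -0.20 ± 0.16 (SE). The groups overlapped on all 6.

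Of the 14 tested probe sets of regulators, 3 had an unadjusted p under 0.05, against 4.79% of all tested probe sets. Irs2, an adaptor of insulin signalling, had signals of 111, 286, 210, 316 and 170 in deprived and 327.5, 252, 413.5, 415 and 324 in non-deprived arrays. Its log2 difference was -0.69 ± 0.23 (SE; exact permutation p = 0.0397, limma adjusted p = 0.992), and 3 of the 5 deprived arrays lay under every non-deprived one. Prkab1, a subunit of the energy sensor AMPK, had 215 ± 35.5 and 281 ± 32.2 (SD, n = 5 each; log2 -0.37 ± 0.14 SE; exact permutation p = 0.00794, the smallest this design allows, limma adjusted p = 0.992), with all 5 deprived arrays under all 5 non-deprived arrays. Ddit4, a hypoxia-responsive inhibitor of mTOR, had 1085 ± 81.7 and 929 ± 56.1 (log2 0.22 ± 0.08 SE; exact permutation p = 0.0238, limma adjusted p = 0.992). None of the 3 passed over the whole table. The probe sets of Irs2 and Prkab1, like that of Rpe, were dim and fell out of the test with the filter at the 60th percentile. Hif1a, the inducible subunit of HIF-1, had 3585 ± 477 and 3482 ± 508 on its brighter probe set (log2 0.04 ± 0.11 SE). Its dimmer probe set, named after its values were seen, lay on the other side of 0 (log2 -0.03 ± 0.11 SE). Both are of the family type. The 14 estimates of the list were divided 7 and 7.

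**Figure D4:**
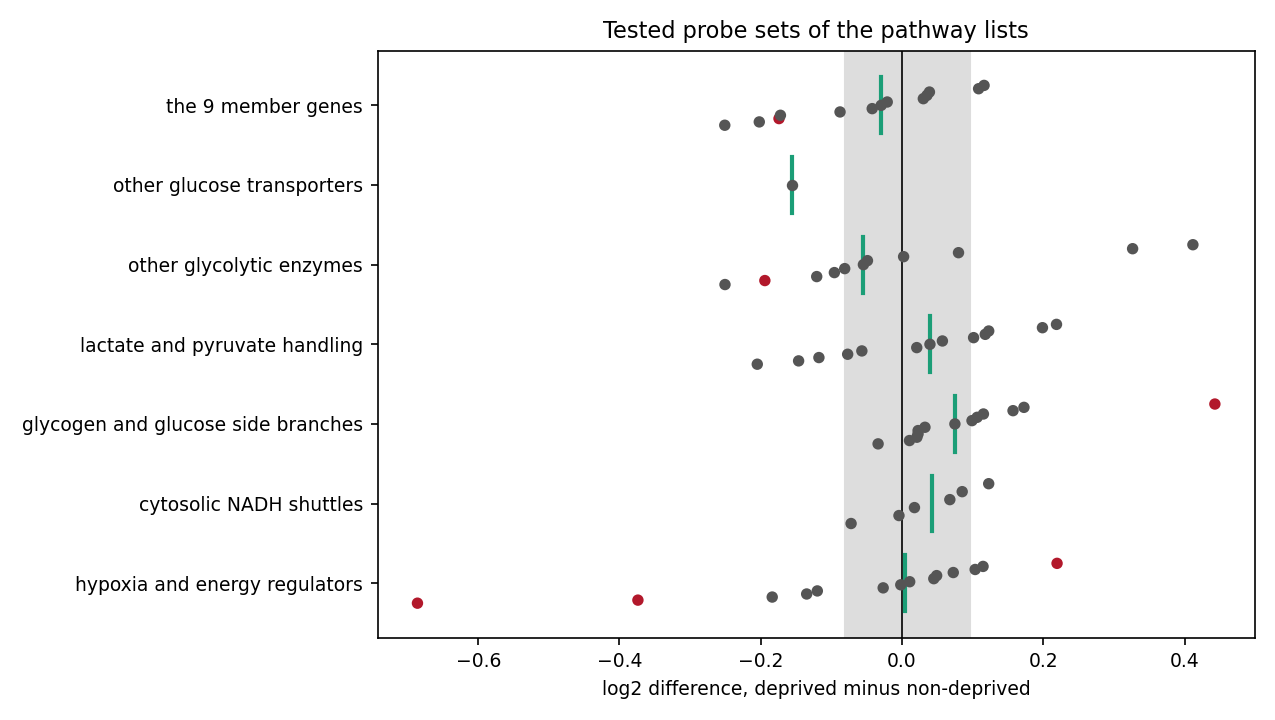
Log2 difference, deprived minus non-deprived, of each tested probe set (points) of the member genes and of the 6 other pathway lists. Red points have an unadjusted limma p under 0.05, green bars are list medians and the grey band is the interquartile range of all 7453 tested probe sets. The list medians run from -0.16 (1 transporter) to 0.07 (glycogen and side branches).

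The arrays carried the markers of cortex in both groups: 7 of 8 listed neuronal genes were measured, led by Snap25, a vesicle fusion protein of neurons, at 13053 ± 679 and 12765 ± 581, and Gria2, an AMPA receptor subunit, at 8162 and 8571. Of the 10 tested neuronal probe sets, 8 had estimates below 0, with a median of -0.03. Probe sets of oligodendrocytes and myelin (13 tested, median 0.06; Mbp 11127 and 11612, Mobp 5694 and 5144), microglia (11 tested, median 0.02; Ctss 1499 and 1495, Csf1r 1484 and 1376) and erythrocytes (3 tested, median 0.09; Hba-a1 4169 and 3462, Hbb-b2 948 and 913) passed the adjusted threshold in no case. No tested probe set of the whole table passed it either. The estimates of the oligodendrocyte and myelin list ran from -0.31 to 0.40. At an unadjusted limma p under 0.05, it had 1 lower and 1 higher in deprived cortex, against 2.36% and 2.43% of all tested probe sets. The microglia and erythrocyte lists had 0 in either direction. The astrocyte list held Aldoc as well and was led by Mt3, a metallothionein, at 8464 and 7328. The median signal of an array was 191 to 209.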

How the data were processed

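RNA of 5 deprived and 5 non-deprived visual cortex samples was measured on 1 Affymetrix array each. The authors deposited linear signal intensities made with MAS5, per the submitters' processing notes. Its version is not stated there. The mean of each array without its lowest and highest 2% was 500 after rounding, so values are relative to the array's average. Of 12422 probe sets without the 66 controls, 10833 had 1 symbol in the platform annotation, and 10817 of these were updated by Entrez ID to RefSeq names (GRCm38.p6). Signals were taken as log2(intensity + 16), which understates changes of dim probe sets. A filter removed probe sets with a mean under the 40th percentile, and 7453 were fitted in limma 3.58.1 (R 4.3.3; lmFit, eBayes with intensity trend), deprived minus non-deprived, with Benjamini-Hochberg adjustment over all of them. Every adjusted p is from that fit. The fit was tested on simulated data only with independent arrays and with changes larger than the estimate of any member. Exact two-sided permutation p-values of single probe sets, over the 252 assignments of 5 against 5 arrays, are unadjusted and were added after the data were seen. No detection calls were used. Precision is limited by how many arrays there are. Signals of different probe sets are not on a common scale, and their order served only to choose and label probe sets and to describe their brightness.

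The members and lists were chosen with earlier results of these data known. Besides all member probe sets, the text names wider pathway probe sets with an unadjusted p under 0.05, the brightest of each list, the 2 brightest genes of each marker list and the control probe sets of Gapdh and Pcx. Alternatives were pseudocounts of 1 and 50, no filter or the 60th percentile, quantile normalization, median centring, no trend, the replicate number as a block, the brightest probe set per gene and leaving out each array. Leaving out 2 arrays together was added after the data were seen.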

Additional observations from a re-analysis of the deposited data

Results flagged for a closer look

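The signals named in the report, those of the Gapdh and Pcx controls included, were examined for a single array far from the other 4 of its group (a gap of over 0.71 of the group's range). The dimmer Hif1a probe set was not among those examined. Of 90 groups of 5 arrays, 14 had such an array, 5 of them among the 26 groups of member probe sets. Chance gives about 1 in 20 for independent, normally distributed values. The rule was applied to signals that were not log-transformed. How often it flags a group over all tested probe sets was not computed, so no excess in these genes can be read from the counts. The dimmer Pkm probe set had it in both groups: deprived replicate 2 at 3409 against 5417 to 5657, and non-deprived replicate 3 at 3117 against 5384 to 5531. The brighter Pkm probe set had deprived replicate 4 at 9439 against 7409 to 7762. The brighter Aldoa probe set had non-deprived replicate 1 at 13650 against 11153 to 11528.5. The dimmer Pfkp probe set had non-deprived replicate 4 at 1429 against 1076 to 1160.

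In the wider lists, Prkab1, whose groups did not overlap, had deprived replicate 2 low at 152 against 223 to 240.4 and non-deprived replicate 2 high at 337 against 256.5 to 278. Pgm1 had deprived replicate 1 at 1713 against 1241 to 1376, Mdh2 had non-deprived replicate 2 at 8043 against 7098 to 7336, and the neuronal marker Gria2 had non-deprived replicate 5 at 9072 against 8381.5 to 8503. Pygm had deprived replicate 1 at 276 against 168 to 195, and a tested Pcx probe set had non-deprived replicate 5 at 322 against 185 to 219. Of the controls, the 3' Gapdh probe set had deprived replicate 2 at 21576 against 18235.5 to 18752, and a middle Pcx probe set had deprived replicate 1 at 254 against 60.6 to 104. The causes were not tested.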

How the results depend on the processing

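No member and no wider pathway probe set passed the adjusted threshold under any of the 19 other settings. Over the whole table the count was 2 with a pseudocount of 50, 2 with the filter raised to the 60th percentile, 6 with the replicate number as a block and 0 to 5 with 1 array left out, none of them members. Same-numbered arrays correlated at 0.14 to 0.23 in their deviations for 4 of the 5 numbers, each the best match of its array, a hint from the data, but at 0.022 for number 5, which was not, so the numbers were not taken as pairs. The block changed no other call, and Ldha had a p of 0.0196 with it. The median of the members stayed below 0 in all 20 alternatives, from -0.09 to -0.0033. Of the 13 member probe sets, 7 changed sign somewhere: with 1 array left out, the log2 difference ran from -0.028 to 0.26 for the dimmer and -0.023 to 0.11 for the brighter Slc2a3 probe set, -0.17 to 0.13 for Hk1, -0.079 to 0.012 for the brighter Aldoa, -0.016 to 0.080 for Eno2, and -0.12 to 0.18 for the dimmer and -0.090 to 0.030 for the brighter Pkm. Among others named, it ran from -0.053 to 0.074 for Pgm1 and -0.034 to 0.11 for the brighter Hif1a probe set. Median centring gave -0.0019 for the brighter Slc2a3 and -0.0093 for Pgm1. Without deprived array 2 and non-deprived array 3, Eno2 had -0.032 and the brighter Pkm 0.039. Slc2a1, Pfkp, Pgk1 and Ldha stayed below 0 in all 19, and the dimmer Aldoa above 0, from 0.074 to 0.18 with 1 array left out. The cause was not tested.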
